A study of Homo sapiens with 24 samples.

Results

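The 5 genes that govern the entry of riboflavin into human cells and its conversion to the flavin coenzymes are described here in SK-HEP-1 cells in which p53 was activated. They are the riboflavin transporters SLC52A1, SLC52A2 and SLC52A3, riboflavin kinase (RFK) and FAD synthetase (FLAD1), found by symbol as 5 of 58825 genes in a table of estimated counts. The set was chosen by the fold change of SLC52A1 between Nutlin-3a and DMSO in the non-targeting lines, where earlier results of these libraries placed it among the strongest responses. The other 4 genes were added as its family and pathway, with those results known.

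Riboflavin (vitamin B2) is not made by human cells and enters them through the SLC52A carriers of the plasma membrane. Riboflavin kinase adds a phosphate to form FMN, and FAD synthetase joins FMN to AMP to form FAD. FMN and FAD are the bound cofactors of flavoproteins, among them dehydrogenases and electron carriers of mitochondria, reductases that keep thiols reduced, and several oxidases. SLC52A2 is expressed in most tissues, SLC52A3 is the main carrier of the intestine, and SLC52A1 is known chiefly from placenta and intestine.

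SK-HEP-1 is an established human line derived from a liver tumour, which the labels call endothelial. Its lines were built for CRISPR interference (CRISPRi), in which a guide RNA directs a catalytically inactive Cas9 with a repressor to a promoter. PURPL is a long noncoding RNA induced by p53. Of the 6 lines, 4 (sg2, sg4, sg5 and sg6) carried a guide against it, and 2 carried a non-targeting guide (NTC1 and NTC2). Every line received Nutlin-3a at 10 µM, which frees p53 from MDM2, or its solvent DMSO, and was harvested after 6 h. Each combination had 2 harvests, numbered 1 and 3 and called biological replicates in the labels, which gave 8 Nutlin-3a and 8 DMSO libraries of PURPL lines and 4 and 4 of NTC lines. Whether a line is a clone or a pool is not given in the sources used here.

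Library totals lay between 66.4 M and 92.1 M counts (median 74.2 M). The unit of level is CPM, the count scaled by TMM to a library of 1 M, and errors are SD over libraries unless named otherwise. PURPL averaged 1.84 ± 0.658 CPM in PURPL lines and 32.7 ± 4.02 CPM in NTC lines with Nutlin-3a, and 0.556 ± 0.204 CPM in PURPL lines and 8.35 ± 1.25 CPM in NTC lines with DMSO. The p53 target CDKN1A averaged 1485 ± 620 CPM with Nutlin-3a and 86.1 ± 6.16 CPM with DMSO in PURPL lines (n = 8 each), and 1009 ± 67.0 CPM and 84.7 ± 17.6 CPM in NTC lines (n = 4 each). Of 10 endothelial markers, 3 passed the expression filter, ERG had 0 counts in all 24 libraries, and the defining markers PECAM1 and CDH5 reached at most 0.0277 and 0.0591 CPM, so the labelled cell type is not borne out by them. Of 10 hepatocyte markers 1 passed. The summed level of 10 nuclear-retained and mitochondrial RNAs lay at 8303 to 10061 CPM with Nutlin-3a and 6442 to 8260 CPM with DMSO in PURPL lines, and at 8278 to 11501 CPM and 5923 to 6739 CPM in NTC lines, and its part in the results below was not tested.

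One library stood apart, that of sg2 with Nutlin-3a from harvest 1, and it is called the divergent library. In it the log2 level of genes relative to the other libraries climbed with transcript GC content by 1.47 per 10 percentage points. The remaining 23 libraries had slopes of -0.205 to 0.329. The 5 genes differ in GC content, with 65.8% for SLC52A2, 59.8% for SLC52A3, 53.3% for FLAD1, 52.97% for SLC52A1 and 38.6% for RFK, against a median of 47.5% over the genes tested. Results that this library touches are therefore also given without it where that moved them.

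**Figure D1:**
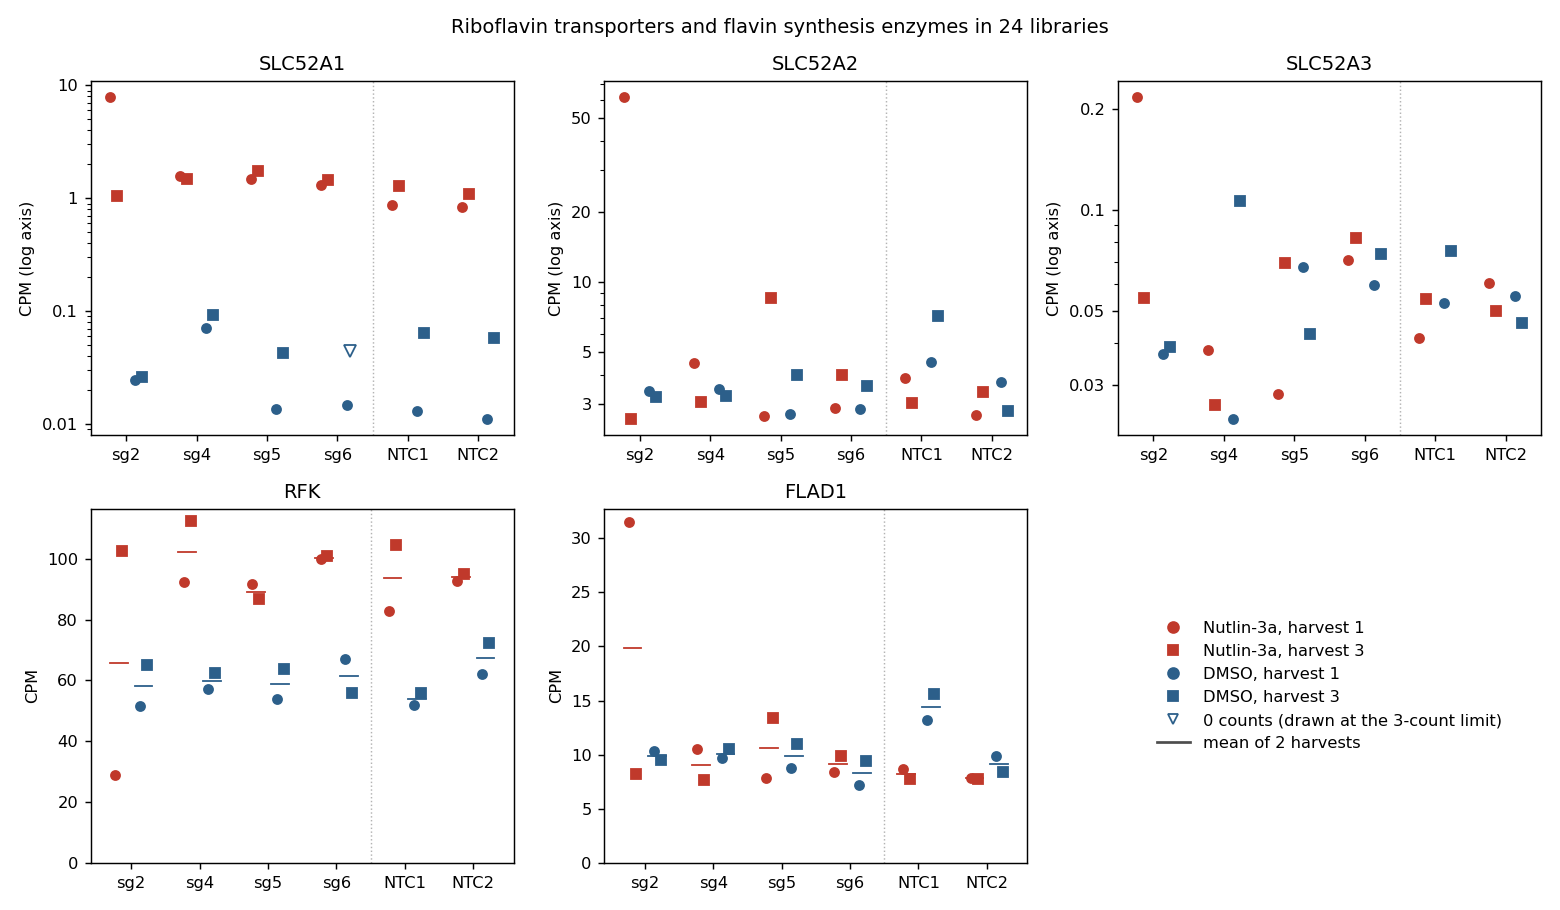
CPM of the 5 genes in all 24 libraries, by line, with Nutlin-3a (red) left of DMSO (blue) and harvest 1 as circles and harvest 3 as squares; the axes of the 3 transporters are logarithmic, and bars mark the mean of 2 harvests for RFK and FLAD1. SLC52A1 lies between 0.833 and 7.87 CPM with Nutlin-3a and below 0.1 CPM with DMSO, and the sg2 circle for Nutlin-3a is the outermost point in every panel.

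SLC52A1 (ENSG00000132517.15, hg38 chromosome 17, 5032600 to 5052009, minus strand) was close to silent in DMSO and present in every culture given Nutlin-3a. In the PURPL lines it had 689 and 77 counts in sg2 with Nutlin-3a (harvests 1 and 3), 123 and 114 in sg4, 104 and 126 in sg5 and 93 and 107 in sg6. With DMSO the same lines had 2 and 2 counts in sg2, 6 and 7 in sg4, 1 and 3 in sg5 and 1 and 0 in sg6. All 8 Nutlin-3a libraries lay above all 8 DMSO libraries, and 689 counts in the divergent library stood far above the other 7. In bulk RNA, more cells that express a gene and more RNA per cell cannot be told apart.

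The mean level of SLC52A1 was 2.25 ± 2.28 CPM with Nutlin-3a (n = 8; 1.45 ± 0.217 CPM over the 7 libraries without the divergent one) and 0.0358 ± 0.0316 CPM with DMSO (n = 8). The ratio of summed counts, scaled for depth, was 64.5 (exact 95% interval 42.4 to 103), and 39.2 (25.7 to 62.9) without the divergent library. These intervals cover counting error alone. A count of 0, as in sg6 with DMSO from harvest 3, allows a level of up to 0.0443 CPM in that library. In edgeR's quasi-likelihood test over all genes, SLC52A1 rose by 6.15 on the log2 scale in the PURPL lines (SE 0.48, adjusted p = 2.29e-07), and by 5.62 without the divergent library (SE 0.27, adjusted p = 7.04e-11). It passed the expression filter only through its Nutlin-3a libraries. Without a filter on low counts the log2 fold change was 6.16 (SE 0.50, edgeR adjusted p = 8.21e-07). The libraries of the PURPL lines were not used to pick SLC52A1, although its response in them was known when the set was drawn up. In this comparison 34.2% of the 16371 genes tested were called at an adjusted p under 0.05, 17.7% upward, and 2 of the 4 members tested were called, both upward.

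In the NTC lines, whose contrast picked the gene, the levels are a description. SLC52A1 had 63 and 94 counts in NTC1 and 55 and 88 in NTC2 with Nutlin-3a, against 1 and 6 in NTC1 and 1 and 5 in NTC2 with DMSO. The groups did not overlap, with 1.02 ± 0.206 CPM with Nutlin-3a and 0.0367 ± 0.0285 CPM with DMSO (n = 4 each). The ratio of summed counts was 27.2 (exact 95% interval 15.7 to 51.8), and the fitted log2 fold change was 4.71 (SE 0.62), or 4.67 without the divergent library (SE 0.34).

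Line by line, the ratio of SLC52A1 counts between Nutlin-3a and DMSO was 187 in sg2 (exact 95% interval 72.8 to 689), 18.8 in sg4 (10.8 to 35.7), 58.1 in sg5 (22.4 to 215), 188 in sg6 (33.4 to 7467), 25.8 in NTC1 (12.2 to 65.3) and 28.9 in NTC2 (12.9 to 79.9). With harvest 3 as the only Nutlin-3a library of sg2, its ratio was 41.3 (15.5 to 155). The ratios divide by 1 to 13 counts, and without the divergent library the spread between lines lies mostly in the denominator. In sg2 the numerator differed too, at 4.76 CPM with the divergent library and 1.05 CPM from harvest 3 alone. The level with Nutlin-3a varied far less, between 1.05 and 1.75 CPM in PURPL lines without the divergent library and between 0.833 and 1.27 CPM in NTC lines.

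SLC52A2 (ENSG00000185803.9, hg38 chromosome 8, 144354135 to 144361286, plus strand), the widely expressed carrier, was the most abundant transporter and showed no steady response. With Nutlin-3a it had 61.7 and 2.59 CPM in sg2 (harvests 1 and 3), 4.49 and 3.08 CPM in sg4, 2.66 and 8.58 CPM in sg5 and 2.90 and 4.00 CPM in sg6. With DMSO these lines had 3.43 and 3.23 CPM in sg2, 3.47 and 3.25 CPM in sg4, 2.72 and 4.01 CPM in sg5 and 2.87 and 3.602 CPM in sg6. The groups overlapped, since 3 Nutlin-3a libraries lay above all DMSO libraries and 2 lay below them.

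The mean of SLC52A2 was 11.2 ± 20.5 CPM with Nutlin-3a (n = 8; 4.04 ± 2.12 CPM without the divergent library, n = 7) and 3.33 ± 0.407 CPM with DMSO (n = 8). The log2 fold change in the PURPL lines was 1.07 (SE 0.42, edgeR adjusted p = 0.0621), short of the threshold, and 0.15 without the divergent library (SE 0.21, edgeR adjusted p = 0.616). On all 24 libraries DESeq2 called it (log2 fold change 1.08, adjusted p = 0.0201), as did edgeR with a filter at 1 CPM (1.15, adjusted p = 0.0465). In the NTC lines SLC52A2 stood at 3.88 and 3.05 CPM in NTC1 and 2.71 and 3.39 CPM in NTC2 with Nutlin-3a, and at 4.55 and 7.13 CPM in NTC1 and 3.74 and 2.81 CPM in NTC2 with DMSO, a log2 fold change of -0.43 (SE 0.59), or -0.46 without the divergent library (SE 0.28).

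The 3 highest SLC52A2 values, 61.7, 8.58 and 7.13 CPM, came from the 3 libraries with the steepest GC slopes, at 1.47, 0.329 and 0.294. SLC52A2 also has the highest GC content of the 5 genes, above 98.2% of the genes tested. With the GC trend removed from every library, the log2 fold change in the PURPL lines was 0.10 (SE 0.12, edgeR adjusted p = 0.521). Whether the GC trend of a library sets its SLC52A2 value was not tested. SLC52A2 overlaps FBXL6, TMEM249 and AC233992.2 on the opposite strand. Whether counting used the strand is not given in the sources used here. RSEM splits reads shared by genes, and SLC52A2 had a non-whole value in 0 libraries. Whether any of its reads came from FBXL6 was not tested. FBXL6 had log2 fold changes in the PURPL lines of 1.05 (edgeR adjusted p = 0.0446) and, without the divergent library, 0.29 (edgeR adjusted p = 0.261).

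SLC52A3 (ENSG00000101276.16, hg38 chromosome 20, 760080 to 776015, minus strand), the main intestinal carrier, stayed at the edge of detection. In the PURPL lines it had 19 and 4 counts in sg2 with Nutlin-3a, 3 and 2 in sg4, 2 and 5 in sg5 and 5 and 6 in sg6, against 3 and 3 in sg2 with DMSO, 2 and 8 in sg4, 5 and 3 in sg5 and 4 and 5 in sg6. NTC lines had 3 and 4 counts in NTC1 and 4 and 4 in NTC2 with Nutlin-3a, against 4 and 7 in NTC1 and 5 and 4 in NTC2 with DMSO. Leaving aside the 19 counts of the divergent library, the other 7 Nutlin-3a values of PURPL lines lay within the range of their DMSO values.

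The ratio of SLC52A3 counts between Nutlin-3a and DMSO was 1.38 in PURPL lines (exact 95% interval 0.863 to 2.23), 0.948 without the divergent library (0.548 to 1.63) and 0.886 in NTC lines (0.422 to 1.82). It failed the expression filter of the Nutlin-3a fits with all 24 libraries and without the divergent one, and was not tested there. It passed in fits that left out another single library. Without a filter its log2 fold change in the PURPL lines was 0.24 (SE 0.45). At these counts a change smaller than the intervals was not detectable. No stretch of 50 bases of its transcripts was found in another gene, and the same held for SLC52A2, so the 3 carriers share no such stretch with each other. In SLC52A1 2.31% of the 50-base stretches occur in another gene, in RFK 0.454% and in FLAD1 0.94%.

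RFK (ENSG00000135002.12, hg38 chromosome 9, 76385517 to 76394517, minus strand), which makes FMN, was the most abundant of the 5 genes and was higher with Nutlin-3a in all lines except for the divergent library. In the PURPL lines it had 28.9 and 103 CPM in sg2 with Nutlin-3a, 92.3 and 112 CPM in sg4, 91.6 and 86.9 CPM in sg5 and 99.8 and 101 CPM in sg6. With DMSO the values were 51.5 and 65.0 CPM in sg2, 57.0 and 62.4 CPM in sg4, 53.7 and 63.8 CPM in sg5 and 67.2 and 55.9 CPM in sg6. Of the 8 Nutlin-3a libraries 7 lay above every DMSO library, and the divergent library lay below every one.

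RFK averaged 89.4 ± 25.7 CPM with Nutlin-3a (n = 8; 98.1 ± 8.53 CPM without the divergent library, n = 7) and 59.6 ± 5.76 CPM with DMSO (n = 8). It rose in the PURPL lines by 0.57 on the log2 scale (SE 0.18, edgeR adjusted p = 0.0274), and by 0.71 without the divergent library (SE 0.07, edgeR adjusted p = 5.04e-07). The call was lost in 12 of 24 alternative fits, among them the fit of the PURPL lines alone (log2 fold change 0.55, edgeR adjusted p = 0.0789); both fits that left the divergent library out kept it. In the NTC lines RFK had 82.7 and 104 CPM in NTC1 and 92.7 and 95.1 CPM in NTC2 with Nutlin-3a, against 51.8 and 56.0 CPM in NTC1 and 62.2 and 72.5 CPM in NTC2 with DMSO. All 4 lay above all 4 DMSO libraries, and the log2 fold change was 0.64 (SE 0.25), or 0.60 without the divergent library (SE 0.10), given as a description.

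FLAD1 (ENSG00000160688.19, hg38 chromosome 1, 154983338 to 154993111, plus strand), which makes FAD from FMN, was not called in the PURPL lines with all 24 libraries or without the divergent one. In the PURPL lines it had 31.5 and 8.19 CPM in sg2 with Nutlin-3a, 10.54 and 7.62 CPM in sg4, 7.89 and 13.4 CPM in sg5 and 8.43 and 9.90 CPM in sg6. With DMSO the values were 10.3 and 9.46 CPM in sg2, 9.65 and 10.6 CPM in sg4, 8.76 and 11.0 CPM in sg5 and 7.18 and 9.45 CPM in sg6. The groups overlapped, since 2 of the 8 Nutlin-3a libraries lay above all DMSO libraries and 0 lay below them.

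FLAD1 averaged 12.2 ± 8.04 CPM with Nutlin-3a (n = 8; 9.42 ± 2.05 CPM without the divergent library, n = 7) and 9.54 ± 1.19 CPM with DMSO (n = 8). The log2 fold change was 0.27 (SE 0.21, edgeR adjusted p = 0.309), and it turned to -0.06 without the divergent library (SE 0.12, edgeR adjusted p = 0.742). Among NTC libraries FLAD1 had 8.67 and 7.75 CPM in NTC1 and 7.87 and 7.77 CPM in NTC2 with Nutlin-3a, against 13.2 and 15.6 CPM in NTC1 and 9.91 and 8.36 CPM in NTC2 with DMSO. Of the 4 Nutlin-3a libraries 3 lay below all 4 DMSO libraries. The log2 fold change was -0.52 (SE 0.30), or -0.55 with a smaller error without the divergent library (SE 0.16), given as a description. The 2 highest DMSO values were those of NTC1, whose libraries had GC slopes of 0.104 and 0.294, the highest among the DMSO libraries. With the GC trend removed from every library, the log2 fold change in the NTC lines was -0.47 (SE 0.19).

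The promoters of RFK and FLAD1 are shown because these enzymes of the same pathway differed in level and in response. RefSeq promoter windows on GRCh38.p14, from 250 bases before to 50 after the start, were at hand for these 2 of the 5 genes; SLC52A1, SLC52A2 and SLC52A3 are not in the table used. Capitals mark GGGCGG on either strand (CCGCCC on the strand shown) and CCAAT on either strand. The RFK window is chr9:76394377-76394676 on the minus strand, and the FLAD1 window is chr1:154983094-154983393 on the plus strand.
RFK promoter: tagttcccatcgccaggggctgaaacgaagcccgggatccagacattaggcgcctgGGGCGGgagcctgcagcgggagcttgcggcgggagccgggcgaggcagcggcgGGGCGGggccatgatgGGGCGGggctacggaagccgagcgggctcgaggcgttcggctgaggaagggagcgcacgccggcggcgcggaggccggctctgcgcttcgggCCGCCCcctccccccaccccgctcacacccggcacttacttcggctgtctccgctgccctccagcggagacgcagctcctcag
FLAD1 promoter: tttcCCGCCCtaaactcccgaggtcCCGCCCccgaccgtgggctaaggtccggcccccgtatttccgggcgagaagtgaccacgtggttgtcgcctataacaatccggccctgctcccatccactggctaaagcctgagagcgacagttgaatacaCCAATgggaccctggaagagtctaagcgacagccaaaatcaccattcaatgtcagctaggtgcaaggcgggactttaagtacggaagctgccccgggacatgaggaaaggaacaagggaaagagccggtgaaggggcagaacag
The RFK window had a GC content of 74.0%, 4 matches to GGGCGG and 0 to CCAAT. The FLAD1 window had a GC content of 57.7%, 2 matches to GGGCGG and 1 to CCAAT. Neither held a match to the p53 half-site consensus, searched on both strands. Of 35116 RefSeq promoter windows of this length, 45.0% held GGGCGG, 34.6% CCAAT and 6.63% the p53 half-site. A match or its absence describes the letters of these windows and not the binding of a factor.

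**Figure D2:**
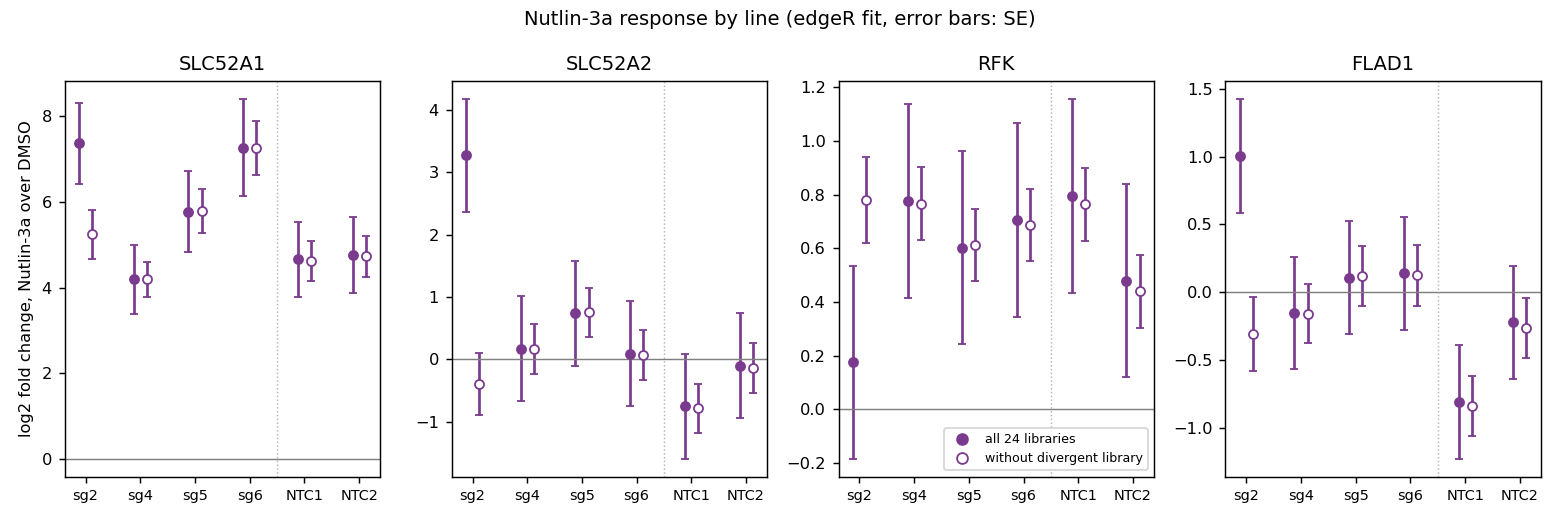
Fitted log2 fold change of Nutlin-3a over DMSO in each line, with PURPL lines left of the dotted line and NTC lines right of it, for the 4 members that passed the filter; filled points use all 24 libraries, open points leave out the divergent library, and bars are SE. SLC52A1 lies above 4 in every line, and the open RFK points lie between 0.44 and 0.78.

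Without the divergent library, the fitted log2 fold change of RFK was 0.78 in sg2 (SE 0.16), 0.77 in sg4 (SE 0.14), 0.61 in sg5 (SE 0.14), 0.69 in sg6 (SE 0.14), 0.76 in NTC1 (SE 0.14) and 0.44 in NTC2 (SE 0.13). With it, sg2 stood at 0.17 (SE 0.36). All 6 lines had the same direction for RFK. For SLC52A1, whose direction in NTC1 and NTC2 was fixed by the choice of the set, the 4 PURPL lines ran from 4.19 in sg4 to 7.25 in sg6 without the divergent library. SLC52A2 ran from -0.79 in NTC1 to 0.75 in sg5 and FLAD1 from -0.84 in NTC1 to 0.12 in sg6, so neither had 1 direction over the lines.

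Set against transcript length, the 5 genes spanned a wide range. In the 12 DMSO libraries the level per kb of annotated exon was 15.5 ± 1.70 CPM per kb for RFK, 2.56 ± 0.555 for FLAD1, 1.21 ± 0.387 for SLC52A2, 0.0150 ± 0.00582 for SLC52A3 and 0.00917 ± 0.00744 for SLC52A1. RFK exceeded FLAD1, FLAD1 exceeded SLC52A2 and SLC52A2 exceeded SLC52A3 in 12 of 12 libraries. The ranges of FLAD1 and SLC52A2 still overlapped across libraries, and SLC52A3 and SLC52A1, in that order in 10 of 12, did not differ beyond their spread.

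With Nutlin-3a and without the divergent library, SLC52A1 moved past SLC52A3 in this order. It lay between 0.212 and 0.445 CPM per kb, against 0.00694 to 0.0218 for SLC52A3, above it in 11 of 11 libraries by a median ratio of 21.1. The NTC libraries among these 11 are part of the contrast that chose SLC52A1, so its rise there is a description. SLC52A2 remained above SLC52A1 in those 11 libraries, by a median ratio of 3.49. FLAD1 remained above SLC52A2 in 11 of 11, although their ranges overlapped. In the divergent library SLC52A2 reached 20.0 CPM per kb and FLAD1 7.84, the only one of 12 Nutlin-3a libraries with that order.

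**Figure D3:**
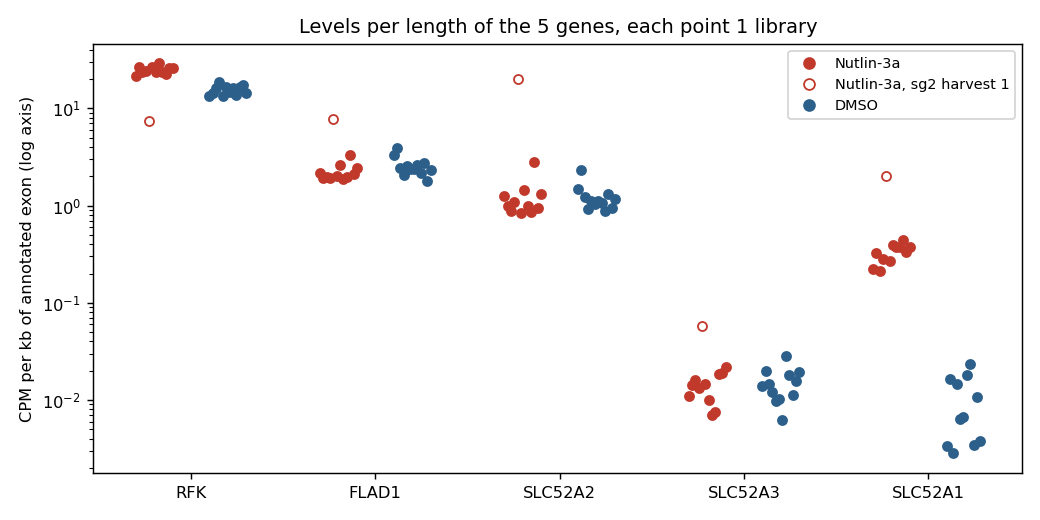
Level of each gene in CPM per kb of annotated exon, on a log axis, with each point 1 library and Nutlin-3a (red; the divergent library open) left of DMSO (blue); the DMSO library with 0 SLC52A1 counts is not drawn. With DMSO the points of SLC52A1 and SLC52A3 overlap, and with Nutlin-3a SLC52A1 lies above SLC52A3 in all 12 libraries. These 12 include the NTC libraries, whose contrast chose SLC52A1.

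In the divergent library the GC-rich members were high and RFK, the GC-poor one, was low. Relative to the median of the other 7 Nutlin-3a libraries of PURPL lines, the log2 level was 4.31 higher for SLC52A2, 2.40 higher for SLC52A1 and 1.90 higher for FLAD1, and it was lower for RFK, at -1.79. Among the genes tested these shifts stood at percentiles 98.9, 89.99, 85.3 and 1.29. SLC52A1 and FLAD1 have nearly the same GC content and lay above the 90th percentile of genes of like GC content. What set this library apart was not tested.

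**Figure D4:**
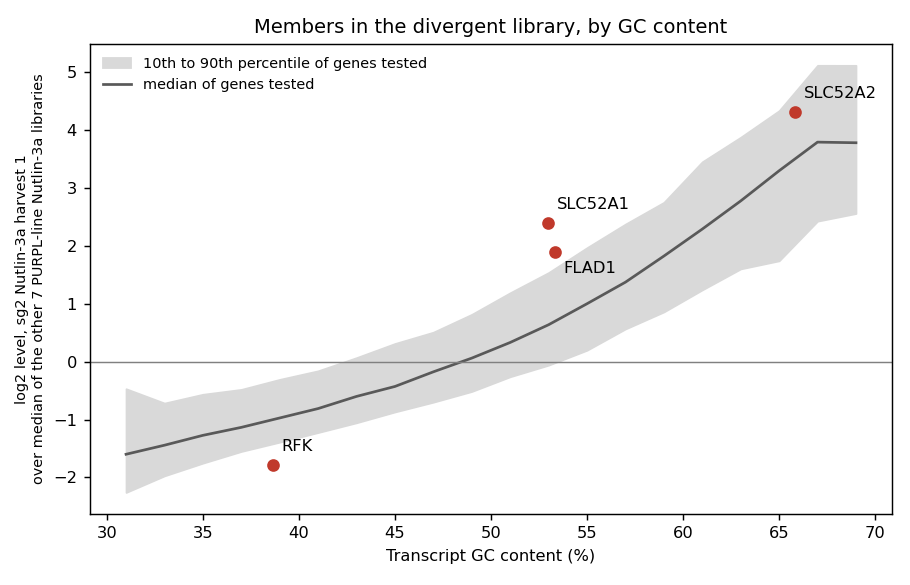
The log2 level in the divergent library over the median of the other 7 Nutlin-3a libraries of PURPL lines, against transcript GC content in percent; the line is the median and the band the 10th to 90th percentile of the genes tested, in bins of 2 percentage points. SLC52A2 is at 4.31, SLC52A1 at 2.40, FLAD1 at 1.90 and RFK at -1.79.

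The effect of the guides on the members was compared with the lines as replicates, 4 PURPL lines against 2 NTC lines. In DMSO no member was called, and 0.00601% of all genes were, which is 1 gene, PURPL. RFK differed by a log2 value of -0.03 (SE 0.09, edgeR adjusted p = 0.93) and SLC52A3 by -0.07 (SE 0.37, edgeR adjusted p = 0.967). SLC52A2 stood lower by -0.48 (SE 0.21) and FLAD1 by -0.31 (SE 0.17), each with an edgeR adjusted p of 0.825. Their difference leaned on NTC1, since without NTC1 it was 0.02 for SLC52A2 and 0.06 for FLAD1. NTC1 was also the line with the highest GC slopes in DMSO, and the part of that trend in the difference was not tested. After removal of the GC trend the difference was -0.18 for SLC52A2 (SE 0.08) and -0.25 for FLAD1 (SE 0.12). SLC52A1, with 22 counts in PURPL lines and 13 in NTC lines, was under the filter, and its ratio was 0.98 (exact 95% interval 0.472 to 2.12).

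With Nutlin-3a no gene was called by edgeR (0% of 16900 tested; 286 had an unadjusted p under 0.05), and DESeq2 called 4. The NTC libraries with Nutlin-3a are part of the contrast that chose SLC52A1, so its difference is given as a description. SLC52A1 was higher in the PURPL lines by a log2 value of 1.18 (SE 0.61), and by 0.46 without the divergent library (SE 0.18). The fit without the divergent library called 0.00596% of all genes and 0 members. The summed counts of SLC52A1 were 744 in PURPL lines without the divergent library and 300 in NTC lines. Their ratio was 1.41 (exact 95% interval 1.23 to 1.62), which covers counting error and not the spread between lines. The log2 differences of the others were 1.86 for SLC52A2 (SE 1.17), 0.55 for SLC52A3 (SE 0.64), 0.64 for FLAD1 (SE 0.40) and -0.08 for RFK (SE 0.21), with edgeR adjusted p of 0.676 to 0.841. Without the divergent library they were 0.26 for SLC52A2 (SE 0.25), 0.22 for FLAD1 (SE 0.10) and 0.07 for RFK (SE 0.06).

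The difference of log2 responses, PURPL lines minus NTC lines, contains the NTC contrast that chose the set, so it is given for the members as a description. It was 1.14 for SLC52A1 (SE 0.95), 1.44 for SLC52A2 (SE 0.93), 0.48 for SLC52A3 (SE 0.81), -0.11 for RFK (SE 0.23) and 0.79 for FLAD1 (SE 0.35). Without the divergent library it was 0.49 for SLC52A1 (SE 0.66), 0.62 for SLC52A2 (SE 0.29), 0.09 for RFK (SE 0.10) and 0.48 for FLAD1 (SE 0.18). No gene was called by edgeR (0% of 17264 tested; 621 had an unadjusted p under 0.05), and DESeq2 called 2. With 2 NTC lines, this does not show that the responses were alike.

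Genes with the pattern most like that of SLC52A1 were sought by Pearson r of log2 CPM over the 24 libraries. The 5 highest were TP53I3 at 0.987, CDKN1A at 0.981, ASTN2 at 0.980, BLCAP at 0.978 and HSF2BP at 0.978. TP53I3, a quinone oxidoreductase, and CDKN1A, the CDK inhibitor p21, are known p53 targets. These values carry the shared contrast of treatments and the divergent library. After each treatment was centred and that library left out, r was 0.632 for TP53I3, 0.510 for CDKN1A, 0.442 for ASTN2, 0.531 for BLCAP and 0.679 for HSF2BP over 23 libraries.

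The other members resembled different genes. SLC52A2 was most like CSK (r 0.994) and NCLN (0.994), with transcript GC contents of 63.6% and 64.6%. RFK was most like MOSPD1 (0.987) and BORCS7 (0.981), with 37.2% and 37.0%, and FLAD1 most like WDR74 (0.984) and ZFYVE19 (0.984), with 55.4% and 55.1%. For SLC52A3 the highest values were 0.794 with ZNF497 and 0.789 with RNASET2, at 2 to 19 counts per library. Between members, r over 24 libraries and over the 23 without the divergent one was 0.435 and 0.927 for SLC52A1 and RFK, 0.939 and 0.857 for SLC52A2 and FLAD1, and -0.720 and -0.500 for RFK and FLAD1. The libraries share lines, treatments and GC trends, so these are descriptions.

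Neither neighbour of SLC52A1 was called with all 24 libraries. KIF1C, a kinesin 4.199 kb away, had a log2 fold change of 0.45 in the PURPL lines (SE 0.17, edgeR adjusted p = 0.0544; 0.17 without the divergent library, adjusted p = 0.115), and ZFP3, at 26.2 kb, one of 0.16 (SE 0.11, edgeR adjusted p = 0.271; 0.24 without the divergent library, adjusted p = 0.0168). Next to FLAD1, ZBTB7B at 9.52 kb rose by 1.62 in the PURPL lines (SE 0.27, edgeR adjusted p = 0.00043), and by 1.10 without the divergent library (SE 0.11, edgeR adjusted p = 4.19e-07). CKS1B, 4.09 kb from FLAD1 on its other side, had -0.02 (SE 0.05, edgeR adjusted p = 0.786). The nearest tested genes of RFK, RPSAP9 at 4.18 kb and OSTF1 at 1238 kb, had 0.09 and -0.10, neither past the threshold with or without the divergent library. Those of SLC52A3, FAM110A and SRXN1, had 0.02 and -0.14 with all 24 libraries, neither past the threshold. Without the divergent library both fell, FAM110A by 0.44 (SE 0.14, edgeR adjusted p = 0.019) and SRXN1 by 0.15 (SE 0.05, edgeR adjusted p = 0.0236).

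Beyond the 5 genes, 112 listed flavin genes were followed, most of them enzymes that hold FMN or FAD, and 93 were tested. In the PURPL lines 22 rose and 13 fell, together 37.6% of the list, against 34.2% of all genes called. Without the divergent library 21 rose and 18 fell, 41.9% of the list against 38.5% of all genes. These shares lie near the background. The median log2 fold change of the list was 0.20, against 0.05 for all genes, and 0.06 against -0.00146 without the divergent library. Among NTC lines 3 rose and 0 fell (of all genes 8.21% were called, 4.18% up and 4.03% down), with a median of -0.06 against -0.02, and 11 rose and 13 fell without the divergent library (of all genes 24.8% were called, 8.88% up and 15.9% down).

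RETSAT, a retinol saturase, rose by 0.99 (SE 0.08, edgeR adjusted p = 2.12e-07), with a median of 58.5 CPM (53.7 to 87.8) with Nutlin-3a and 30.8 CPM (27.0 to 33.4) with DMSO. Its groups did not overlap. FDXR, the ferredoxin reductase of mitochondria and a known p53 target, rose by 3.17 (SE 0.39, edgeR adjusted p = 2.55e-05), and by 2.38 without the divergent library, which held 192 CPM against a median of 15.8 CPM over all 8 Nutlin-3a libraries and 2.84 CPM in DMSO.

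KDM1A and GSR fell by smaller amounts. KDM1A, a histone demethylase that uses FAD, fell by 0.29 (SE 0.04, edgeR adjusted p = 0.000181), with a median of 190.9 CPM (178 to 199) with Nutlin-3a and 230.6 CPM (219.8 to 239.9) with DMSO. GSR, glutathione reductase, fell by 0.34 (SE 0.06, edgeR adjusted p = 0.000374). The same comparison in NTC lines called RETSAT at 0.83 (SE 0.11, edgeR adjusted p = 0.000153) and MTO1, a tRNA-modifying flavoprotein, at 0.35 (SE 0.10, edgeR adjusted p = 0.0422).

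By group, counts in the PURPL lines are given for all 24 libraries and then without the divergent one, beside shares of 17.7% up and 16.5% down over all genes, and 15.9% up and 22.7% down without it. Of 17 acyl-CoA dehydrogenase and electron transfer genes 4 rose and 0 fell, and without it 5 rose and 0 fell. ETFB, the beta subunit of electron transfer flavoprotein, rose by 1.18 (SE 0.37, edgeR adjusted p = 0.0244), but by 0.38 without the divergent library (SE 0.14, edgeR adjusted p = 0.0436). ACADVL, a dehydrogenase of very long chain acyl-CoA, rose by 0.54 (SE 0.18, edgeR adjusted p = 0.0326), but by 0.23 without it (SE 0.08, edgeR adjusted p = 0.0237). In the NTC lines ETFB had a log2 fold change of -0.16 (SE 0.51) and ACADVL one of -0.003 (SE 0.25). Without the divergent library these were -0.20 (SE 0.19) and -0.04 (SE 0.10).

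Of 16 respiratory chain and dehydrogenase flavoproteins 5 rose and 4 fell, and 3 rose and 4 fell without the divergent library. Of 21 reductases 4 rose and 4 fell, and 4 rose and 5 fell without it. Of 6 thiol oxidases 0 rose and 1 fell, and 1 rose and 1 fell without it. Of 11 amine, amino acid and other oxidases 3 rose and 1 fell with or without it. Of 10 monooxygenases and sterol or lipid enzymes 3 rose and 1 fell, but 2 rose and 4 fell without it. Of 7 folate, cobalamin, coenzyme A and tRNA enzymes 1 rose and 0 fell, and 1 rose and 1 fell without it. Of the 2 cryptochromes 1 rose and 1 fell either way.

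Among 3 tested genes that handle flavins, 1 rose and 1 fell either way. SLC25A32, the mitochondrial carrier tied to FAD and folate transport, fell by 0.44 (SE 0.13, edgeR adjusted p = 0.0236), and by 0.32 without the divergent library (SE 0.05, edgeR adjusted p = 0.000144). BLVRB, flavin reductase, rose by 1.75 in the PURPL lines (SE 0.43, edgeR adjusted p = 0.00667), and by 0.82 without that library (edgeR adjusted p = 0.00287). In the NTC lines the log2 fold change of BLVRB was 0.03 (SE 0.59), or -0.01 without the divergent library (SE 0.25). SLC25A32 had -0.26 in the NTC lines (SE 0.19), or -0.29 without the divergent library (SE 0.07). In the comparisons of PURPL with NTC lines 0 of the 93 genes were called with DMSO, with Nutlin-3a or for the difference of responses, by edgeR or by DESeq2.

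**Figure D5:**
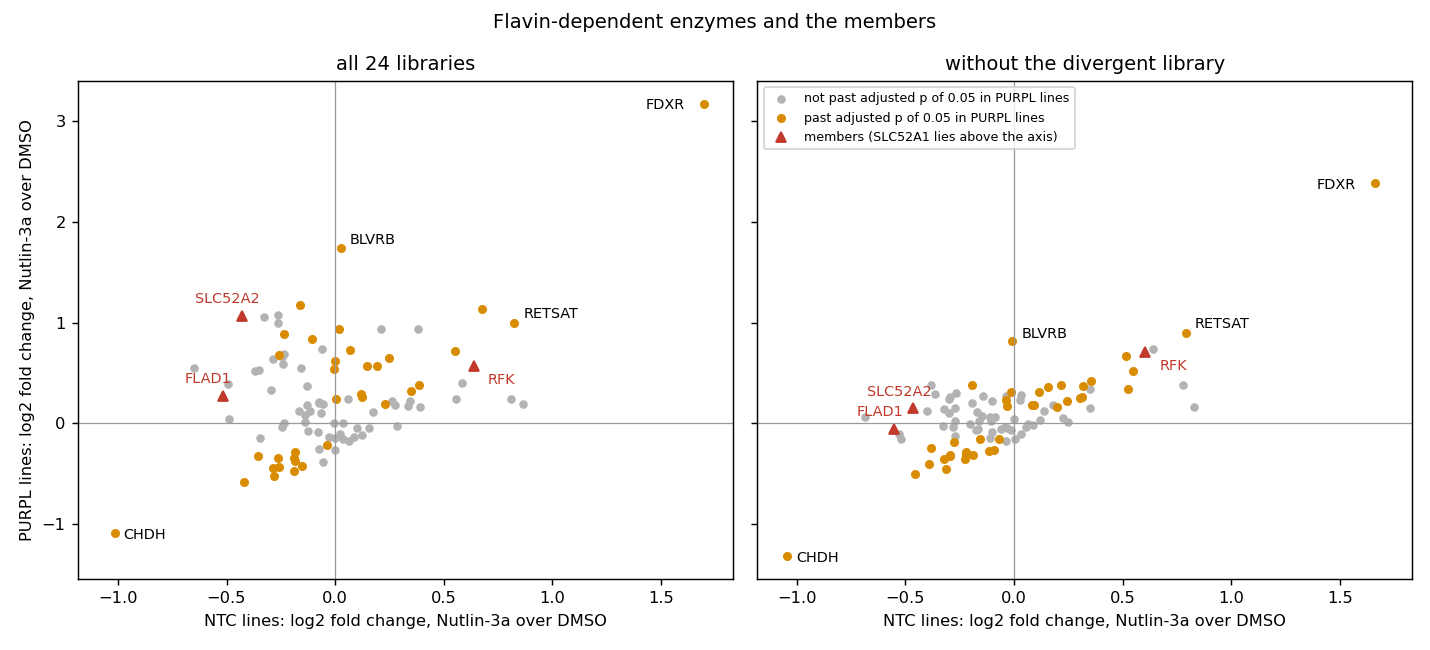
Log2 fold change of Nutlin-3a over DMSO in PURPL lines (vertical) against NTC lines (horizontal) for the tested flavin genes, with all 24 libraries on the left and without the divergent library on the right; orange points passed an adjusted p of 0.05 in PURPL lines and red triangles are members. SLC52A1, at 6.15 and 4.71, lies above the axis, FDXR is at 3.17 on the left and 2.38 on the right, and SLC52A2 is at 1.07 on the left and 0.15 on the right.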

How the data were processed

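Libraries of polyadenylated RNA were made with the TruSeq Stranded mRNA kit, per the labels' protocols. The authors deposited estimated counts per gene, made with RSEM; cutadapt, STAR, RSEM, DESeq2 and hg38 are named in the submitters' processing notes, with versions, parameters and the use of strand not given in the sources used here. Reads shared by genes are split by RSEM, so 5.6% to 7.16% of values per library were not whole, but those of the 5 genes were.

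Of 58870 rows, 45 second pseudoautosomal copies were added to their X rows. Counts were rounded. Coordinates, exon lengths and GC content came from GENCODE 29, matched for 58552 genes without ID version. Genes were kept by filterByExpr (minimum count 10), scaled by TMM and tested with edgeR 4.0.16 (robust quasi-likelihood, R 4.3.3), Benjamini-Hochberg adjusted over all genes tested, with calls under 0.05. Nutlin-3a responses used 12 group means over 24 libraries, so their p-values measure the spread between harvests, which may be technical; guide comparisons used sums of the 2 harvests per line, and the difference of responses 12 sums with a term per line. SE is the log2 fold change over the root of F. Harvest pairs differed by more than sampling noise (chi-square per degree of freedom 7.49 to 1300). The fits were checked on simulated counts with the same dispersion for all genes and no line effect, GC trend or divergent library. That check therefore does not show how they behave under the spread of these data. At the smallest library, 3 counts are 0.0452 CPM.

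The members and lists were chosen with earlier results of these data known. The text names the 5 members, checks, up to 3 called flavin genes each way with the smallest p, the genes most alike, and the nearest tested genes, some of which are not reported here; BLVRB, SLC25A32, ETFB, ACADVL and FBXL6 were picked out with their values in view. Other settings tried were RLE factors, no filter, a 1 CPM filter, DESeq2 1.42.0, GC trend removal, a harvest block, only the lines compared, and omission of each library, line or harvest in turn; GC removal together with leaving out the divergent library was added after the data were seen.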

Additional observations from a re-analysis of the deposited data

Results flagged for a closer look

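A library was marked where its gap to the nearest other library of its group was large relative to the group's range by Dixon's 95% criterion, which chance meets in about 1 of 20 groups. Of 20 groups of the 5 genes, 6 had such a library. In 5 of them it was harvest 1 of sg2 with Nutlin-3a, among the 8 Nutlin-3a libraries of PURPL lines, with SLC52A1 at 7.87 CPM, SLC52A2 at 61.65 CPM, SLC52A3 at 0.217 CPM and FLAD1 at 31.5 CPM as the highest values and RFK at 28.9 CPM as the lowest. In the sixth, FLAD1 at 8.67 CPM in NTC1 with Nutlin-3a from harvest 1 lay above the other 3 Nutlin-3a libraries of NTC lines, which were close together at 7.75 to 7.87 CPM.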

How the results depend on the processing

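SLC52A1 rose in the PURPL lines under all 24 alternatives run, with log2 fold changes of 5.61 to 6.76 and edgeR or DESeq2 adjusted p of 8.76e-26 to 2.06e-05. RFK kept its direction in all 24 (0.25 to 0.82) and lost its call in 12, with adjusted p of 8.09e-09 to 0.0789. Members called in the PURPL lines numbered 2, against 3 by DESeq2 and with a filter at 1 CPM (SLC52A2 added), 1 without a filter on low counts and 1 with only the PURPL lines fitted, and 1 to 4 when single libraries were left out; the 4 came without harvest 3 of sg2 with Nutlin-3a, where the divergent library is alone in its group and adds nothing to the spread. Over all genes, calls there numbered 3491 with only those lines fitted and 3805 to 11220 with single libraries left out. In the NTC lines they numbered 1344, against 826 without a filter, 3786 with the GC trend removed, 5089 with that and the divergent library left out, 3651 with only those lines fitted and 796 to 4137 with single libraries left out. In the PURPL lines DESeq2 called 3786 genes up and 2835 down of 16371 tested, against 2896 and 2707 by edgeR. The filter at 1 CPM gave 3282 up and 2194 down of 12616. Without a filter 2162 rose and 1770 fell of 29532, and with only those lines fitted 1414 and 2077 of 16141. The share of all genes called thus moved with the setting, so the member counts are not a result about the members. The harvest number as a replicate block gave 2698 genes up and 2722 down in the PURPL lines and 732 up and 687 down in the NTC lines, and no member's call changed. The main fits did not pair the samples by harvest number. The difference between harvests 1 and 3 had correlations of 0.0188 to 0.324 between treatments within lines, positive in every line. Whether the harvests share an effect was not tested. A harvest block was not fitted for the guide comparisons, which used sums over the harvests.

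For PURPL against NTC lines in DMSO, genes called numbered 2 without a filter, 11 by DESeq2, 2 with the GC trend removed, 0 from harvest 3 alone, 2 with harvests as replicates and 0 to 6324 with single lines left out. Without NTC2, leaving NTC1 alone with a spread assumed like that of the other lines, SLC52A2 (-0.85) and FLAD1 (-0.61) were called, so members called ran from 0 to 2. With Nutlin-3a, genes called numbered 4 by DESeq2, 1 when the divergent library was left out, 1 with the GC trend removed, 2 with both, 1 from harvest 3 alone, 2 with harvests as replicates and 0 to 1 with lines or libraries left out. For the difference of responses they numbered 2 by DESeq2, 1 with the GC trend removed and the divergent library left out, and 0 to 1 with lines or libraries left out. No member was called between guides with Nutlin-3a under the 16 alternatives run.

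Directions turned for values that were not called. In the PURPL lines with Nutlin-3a, SLC52A2 was -0.032 and FLAD1 -0.080 with the GC trend removed and the divergent library left out, and FLAD1 ran from -0.056 to 0.43 over fits without single libraries. Between guides in DMSO, fits without single lines ran from -0.85 to 0.017 for SLC52A2, -0.61 to 0.062 for FLAD1, -0.24 to 0.12 for SLC52A3 and -0.18 to 0.13 for RFK; SLC52A3 was 0.085 with the GC trend removed and RFK 0.016 from harvest 1 alone. With Nutlin-3a, SLC52A3 was -0.078 with the GC trend removed, and RFK was 0.044 with it removed, 0.10 with the divergent library left out too, 0.025 from harvest 3 alone and -0.16 to 0.071 without single lines or libraries. For the difference of responses, SLC52A3 was -0.15 with the GC trend removed, and RFK was 0.11 with it removed, 0.18 with the divergent library left out too, 0.039 from harvest 3 alone and -0.28 to 0.087 without single lines or libraries. The cause of these turns was not tested. Per kb of the longest annotated transcript, the DMSO levels were 22.3 CPM for RFK, 3.87 for FLAD1 and 1.70 for SLC52A2. Depth limits SLC52A3 and, in DMSO, SLC52A1, both at under 10 counts per library outside the divergent one.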
